A study of Mus musculus with 12 samples.

Results

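The genes of the cytosolic ribosomal proteins were followed in 12 RNA-seq libraries made from 4T1, a cell line of mouse mammary carcinoma. Members were the rows of the expression table annotated as protein coding and named Rpl or Rps followed by a number (with or without a final a, l or x), or Rplp0, Rplp1, Rplp2 or Rpsa. Of 29937 rows, 81 matched by name and 78 were members. Of these, 77 were expressed enough to test, 46 of the large (60S) and 31 of the small (40S) subunit, and Rpl3l was almost undetected. The names Rpl6l, Rpl32l and Rps4l were left out because their rows are annotated as pseudogenes. All of the 78 symbols follow the nomenclature of the ribosomal proteins, and the members together held between 2.81% and 4.69% of all counts in a library.

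The 4 groups held 3 libraries each and are called by their titles. The control group is titled PBS, although its treatment label reads DMSO, and its values come from columns headed CON, matched to it by inference. The treated groups are Oxa, APAP and OAP2, names given without doses, times or expansions. All 12 libraries are labelled as wild-type adherent 4T1 cells, whereas the design text of the series speaks of cell-derived xenografts and sets OAP2 against the other drugs. Nothing states that replicates were separate cultures, so a p-value here is set against a spread between libraries that may be technical.

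The ribosome is built from ribosomal RNA and about equal amounts of each ribosomal protein, so that cells make these proteins in step. Their mRNAs are among the most abundant of a growing cell, and most begin with a run of pyrimidines, the terminal oligopyrimidine tract, through which mTOR signalling and the protein LARP1 set their translation and stability. Ribosomal protein genes have also left very many processed pseudogenes in mammalian genomes, intronless copies of the mRNA whose sequence can be nearly that of the gene itself.

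Because of these copies, the sequences come first. The coding stretches below compare 3 members with the most abundant copy of each in the table, 60 bases of each, and capitals mark the bases that differ. They were taken from the GENCODE M21 transcripts (GRCm38) and show how little separates a gene from its copy. Rpl3 was compared with Rpl3-ps1 on chromosome X (chrX:13202571-13203780), Rpl30 with Gm12191 on chromosome 11 (chr11:49678710-49679057), and Rps18 with Rps18-ps6 on chromosome 13 (chr13:97760072-97760632).
Rpl3: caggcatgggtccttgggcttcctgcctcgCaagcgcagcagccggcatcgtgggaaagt
Rpl3-ps1: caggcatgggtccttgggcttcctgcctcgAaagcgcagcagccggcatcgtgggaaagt
Rpl30: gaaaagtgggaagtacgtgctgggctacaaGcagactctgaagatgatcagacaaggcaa
Gm12191: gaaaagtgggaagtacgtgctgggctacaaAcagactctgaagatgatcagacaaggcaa
Rps18: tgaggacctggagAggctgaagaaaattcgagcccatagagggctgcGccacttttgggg
Rps18-ps6: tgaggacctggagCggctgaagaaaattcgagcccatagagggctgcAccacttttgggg

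Over the aligned coding sequence, Rpl3 and Rpl3-ps1 differed at 2 of 1209 bases. Rpl30 and Gm12191 differed at 1 of 345 bases, and Rps18 and Rps18-ps6 at 4 of 456. For Rps13 and Rps13-ps2 no difference was found over 453 bases, and for Rpl5 and Gm15500 none over 891. A read from the identical stretches fits gene and copy equally, and how such reads were assigned is not given in the sources used here.

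By sequence (at least 90% identity over at least 50% of the pseudogene), 803 pseudogene rows matched one of 76 members. The mean FPKM, a level scaled to transcript length and library size, summed to 16297 over the members and to 13423 over these copies. In 36 of the 77 members tested, the gene's own row held over 95% of the counts of gene and copies together. In 9 it held under 50%: Rpl29 1.89%, Rpl21 1.98%, Rps2 5.85%, Rpl26 9.35%, Rps18 17.2%, Rpl35a 19.9%, Rpl30 22.3%, Rpl17 31.4% and Rpl7a 44.0%. The level of such a row is therefore not a level of the gene alone.

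**Figure D1:**
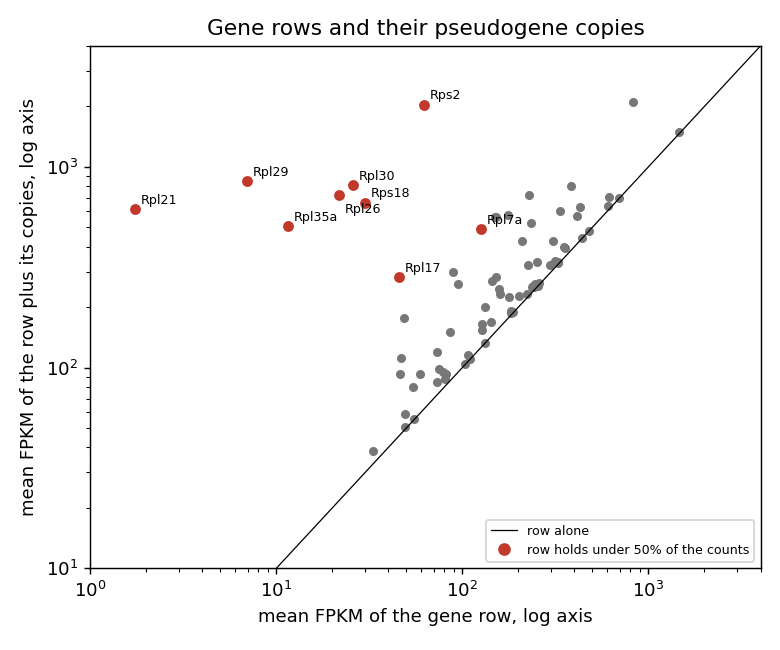
Mean FPKM over 12 libraries of each of 77 ribosomal protein gene rows (horizontal, log axis) against the sum of the row and its sequence-matched copies (vertical, log axis), 1 point per gene. Where any copies were matched, they add little for points on or near the line. The 9 named genes lie far above it, Rpl21 rising from 1.74 to 613.

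Member rows ranged in mean FPKM from 1.74 to 1454, with a median of 152 and an SD of 1.57 on the log2 scale. With the copies added the SD was 1.22 and the range 38.2 to 2091. The highest rows were Rplp1 at 1454 and Rplp0 at 826, proteins of the stalk that recruits translation factors, and Rpl4 at 697, which lines the exit tunnel. Rplp2, the partner of Rplp1 in the stalk, stood at 110. The lowest tested rows were Rpl21 at 1.74, Rpl29 at 6.94 and Rpl35a at 11.6, all 3 among the 9 dominated by copies. Of the close paralogues, Rps27l, which pairs with Rps27, reached 55.2 against 103 for Rps27 itself. Rpl3l, the striated muscle form of Rpl3, was at FPKM 0 in 10 libraries and at no more than 0.03 in the others, and was not tested. Rpl10l and Rpl39l are not analysed here, and the Rps4l row, at a mean of 0.00667, is no member.

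Counts in the member rows made up 3.60%, 3.67% and 3.82% of all counts in PBS 1 to 3, and 2.81%, 2.87% and 3.25% in Oxa 1 to 3. The APAP libraries held 2.98%, 3.40% and 3.44%. The OAP2 libraries held 3.26%, 2.90% and 4.69%. The 6 libraries of Oxa and APAP were below the lowest PBS library, as were OAP2 1 and 2, while OAP2 3 lay above every other library. The group means were 3.70% ± 0.113 (SD, n = 3) for PBS, 2.98% ± 0.239 for Oxa, 3.27% ± 0.258 for APAP and 3.62% ± 0.949 for OAP2. Without OAP2 3 the mean of the remaining OAP2 libraries was 3.08% (n = 2). In bulk RNA, fewer cells of a type and less RNA per cell cannot be told apart, nor can a lower share of these mRNAs and a higher amount of the others.

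OAP2 3 was the highest library for 65 of the 77 tested members. As the mean over members of the deviation from the 12-library mean (log2 CPM, counts scaled to library size), it stood at 0.50, against -0.04 and -0.24 for OAP2 1 and 2. The lowest library was Oxa 1 for 28 members, OAP2 2 for 20, Oxa 2 for 14 and APAP 1 for 12. How often each library was highest or lowest over all genes tested was not counted. The array quality weights, which limma estimates per library over all genes tested, were 0.239 for OAP2 3 and 0.131 for PBS 2. They were 0.879 to 2.31 for the other libraries. The share of the counts of gene and copies held by the member rows hardly moved, from 76.1% to 77.5%, so the copies rose and fell with the genes. In OAP2 3 the copies held 1.42% of all counts, against 0.883% to 1.18% in the other libraries.

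**Figure D2:**
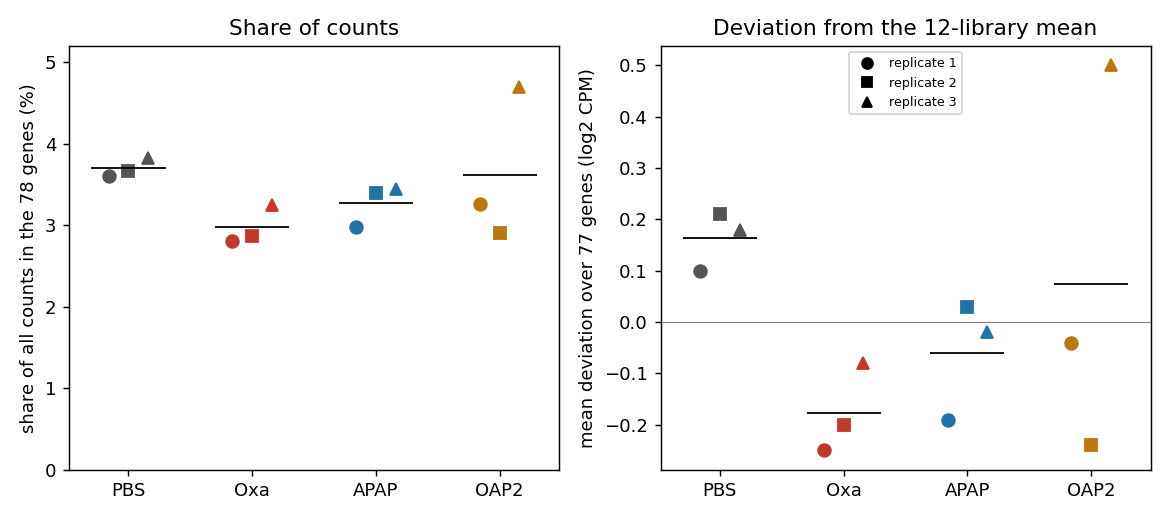
Left, the share of all counts (%) in the 78 gene rows in each library. Right, the mean over 77 tested genes of log2 CPM minus the gene's mean over 12 libraries. Points are libraries, horizontal lines are group means. OAP2 3 stands at 4.69% and 0.50, above all others, and the 3 Oxa libraries lie below the 3 PBS libraries.

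Several other measures moved with these libraries, and their part in the results was not tested. Depth was even, from 64071751 to 71500487 counts per library. The summed FPKM of the 7 epithelial markers lay between 904 and 1371. That of the 7 red blood cell markers was 232 in PBS 2 and at most 0.37 elsewhere, and that of the 8 neutrophil markers was 67.6 in PBS 2 and at most 0.72 elsewhere. Macrophage markers reached 46.2 in PBS 1 against 12.1 to 20.6 in the other 11 libraries. The markers of T and NK cells, of B cells, of fibroblasts and of endothelium, each list summed by itself, reached at most 2.09 in any library. The summed FPKM of RNAs without a poly(A) tail was 47.9 to 123 in Oxa, 12.9 to 35.7 in PBS, 27.3 to 35.8 in APAP and 23.4 to 72.9 in OAP2, so that Oxa did not overlap with PBS. OAP2 3, at 23.4, was not high in it. Mitochondrially encoded mRNAs held 2.55% of counts in PBS 2 and 2.75% in OAP2 3, and 3.27% to 4.29% elsewhere. The median deviation of other genes with a like count per FPKM was 0.12 (log2) in OAP2 3 and -0.08 to 0.04 in the other libraries.

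In Oxa against PBS, the log2 fold change was negative for 76 of 77 members, most of which did not pass the test, with a median of -0.33 beside -0.01 over all 12036 genes tested. Of the members, 6 fell at an adjusted p below 0.05 (edgeR quasi-likelihood, Benjamini-Hochberg over all genes tested), or 7.79%, where 4.76% of all genes tested fell. No member rose by edgeR, DESeq2 or limma, and 0 had an unadjusted p below 0.05 in that direction, against 34 in the other, where 13.6% of all genes tested were lower at that level. All 3 Oxa libraries lay below all 3 PBS libraries for 56 members, or 72.7%, where 15.2% of all genes tested did. The median was -0.37 over the 31 proteins of the 40S subunit and -0.32 over the 46 of the 60S subunit.

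Those that fell are described by role. Rpl3 (ENSMUSG00000060036, chr15:80077791-80091868, minus strand; positions in GRCm38) encodes a core 60S protein near the peptidyl transferase centre. Its FPKM was 274, 233 and 286 in PBS, 157, 151 and 170 in Oxa, 232, 259 and 269 in APAP, and 229, 211 and 276 in OAP2. The Oxa libraries were the 3 lowest and overlapped with no other group. The log2 fold change in Oxa against PBS was -0.73 ± 0.11 (SE, adjusted p = 0.00334), a ratio of 0.605. Over 28 alternative settings the adjusted p ran from 2.58e-07 to 0.0239. The copy Rpl3-ps1 had a mean FPKM of 405 against 229 for the Rpl3 row.

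Rps20 (ENSMUSG00000028234, chr4:3831334-3835665, minus strand), a protein of the head of the 40S subunit, read FPKM 88.3, 101 and 100 in PBS and 55.5, 58.4 and 62.2 in Oxa. It read 78.4, 88.9 and 90.5 in APAP, and 89.5, 82.1 and 131 in OAP2. Oxa was again the lowest group without overlap. The log2 fold change was -0.71 ± 0.15 (adjusted p = 0.00989). Over the alternatives the adjusted p ran from 3.87e-05 to 0.0525, the latter without Oxa 1. The copy Gm4332 had a mean FPKM of 65.5 against 85.6 for the Rps20 row.

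Rpl5 (ENSMUSG00000058558, chr5:107900502-107909005, plus strand) binds the 5S ribosomal RNA together with Rpl11, and free 5S particles bind MDM2. Its FPKM was 175, 190 and 194 in PBS and 129, 113 and 139 in Oxa. APAP read 144, 163 and 166, above Oxa and below PBS without overlap, while OAP2 at 157, 139 and 188 reached both. The log2 fold change in Oxa was -0.55 ± 0.11 (adjusted p = 0.0101). The copy Gm15500 had a mean FPKM of 75 against 158 for the Rpl5 row. Over the alternatives the adjusted p of Rpl5 ran from 0.000171 to 0.0572, the latter without Oxa 2. Its partner Rpl11 read FPKM 80.5, 100 and 97.3 in PBS and 72.8, 70.9 and 84.1 in Oxa, overlapping, with -0.28 ± 0.17 (adjusted p = 0.320).

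The remaining 3 calls, of Rpl30, Rps18 and Rps13, turned on how copies were counted. Rpl30 (ENSMUSG00000058600, chr15:34440505-34443259, minus strand), a 60S protein that also binds selenocysteine elements, read FPKM 34.3, 33.9 and 32.5 in PBS and 15.2, 21.9 and 23.7 in Oxa. Its row changed by -0.72 ± 0.15 (adjusted p = 0.00975). With the sequence-matched copies added, of which Gm12191 alone had a mean FPKM of 591 against 25.8 for the Rpl30 row, the value was -0.34 and the adjusted p 0.115, within a range of 0.000153 to 0.118 over the alternatives.

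Rps18 (ENSMUSG00000008668, chr17:33951999-33955663, minus strand), a 40S head protein, read FPKM 36.2, 32.1 and 33.8 in PBS and 25.7, 25.7 and 25.4 in Oxa, a change of -0.40 ± 0.11 (adjusted p = 0.0325). Leaving out PBS 1 gave 0.119, PBS 3 0.0617, Oxa 1 0.0995, Oxa 2 0.086, Oxa 3 0.114 and APAP 3 0.0518. Its copy Rps18-ps6, annotated as protein coding in the table, had a count of 0 in PBS 1, PBS 2 and Oxa 2 and between 14751 and 41107 in the other 9 libraries. The share of the Rps18 row in the counts of gene and copies accordingly ran from 11.6% to 42.1%. The sum with copies changed by -0.19 (adjusted p = 0.799), but that sum itself rests on a row at 0 in 3 libraries. Over the alternatives the adjusted p ran from 0.000207 to 0.799.

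Rps13 (ENSMUSG00000090862, chr7:116331505-116334195, minus strand), an early-assembling 40S protein, read FPKM 60.5, 89.3 and 67.0 in PBS and 47.9, 42.5 and 53.6 in Oxa. The value of PBS 2, the library with blood cell markers, is the highest of the 12. The change was -0.58 ± 0.17 (adjusted p = 0.0451), and -0.40 with an adjusted p of 0.0719 without PBS 2. The call was also lost without PBS 3 (0.0608), Oxa 1 (0.122), Oxa 2 (0.157), Oxa 3 (0.0829), APAP 2 (0.0538), APAP 3 (0.0658) and OAP2 1 (0.0598), and with the copies added (0.0977), within a range of 0.01 to 0.189 over the alternatives. With copies summed, Rpl3 (adjusted p = 0.00438), Rps20 (0.0113) and Rpl5 (0.0139) were the 3 called members.

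**Figure D3:**
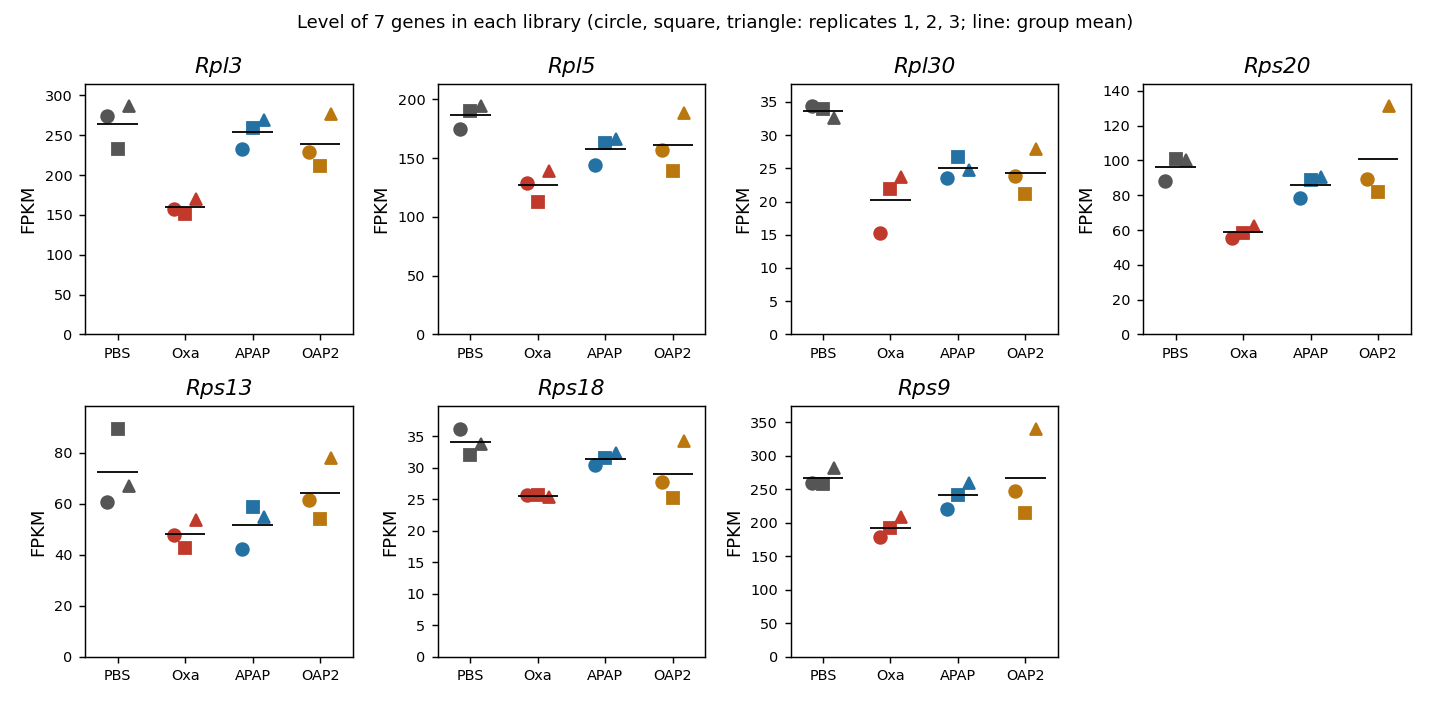
FPKM in each of 12 libraries for the 6 genes that fell in Oxa against PBS and for Rps9, which rose in OAP2 against Oxa along with Rpl3 and Rps20. Points are libraries and lines are group means. For Rpl3 the Oxa libraries at 151 to 170 lie below all other libraries. OAP2 3 is the highest point for Rps20 and Rps9.

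The extremes among uncalled members were as follows. Rpl17 had the lowest value in Oxa against PBS, -0.98 ± 0.44 (adjusted p = 0.170, and 0.00813 to 0.467 over the alternatives), with FPKM of 34.5, 99.8 and 77.5 in PBS and 58.2, 21.5 and 26.7 in Oxa. These groups overlapped, and the share of the Rpl17 row in gene and copies ran from 19.7% to 54.6% between libraries. At the other end stood Rps28 (0.03 ± 0.14), Rps21 (-0.01 ± 0.15), Rps2 (-0.03 ± 0.20) and Rpl41 (-0.09 ± 0.20), none called. Rpsa, which is both a 40S protein and a laminin receptor, changed by -0.10 ± 0.12 (adjusted p = 0.635). Rps6, the substrate of S6 kinase, had -0.39 ± 0.15 (0.116), and Rps27a, which is made as a fusion with ubiquitin, -0.37 ± 0.17 (0.181). The stalk genes had -0.19 ± 0.12 for Rplp0, -0.28 ± 0.18 for Rplp1 and -0.20 ± 0.14 for Rplp2, and Rps27l had -0.21 ± 0.24. Across the 77 members, the fold change and the log2 mean FPKM had a Pearson's r of 0.31 and a Spearman's rho of 0.37, and the fold change and the count per FPKM, which grows with transcript length, an r of -0.43 and a rho of -0.51, as a description of genes that share the same libraries.

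The number of members called in Oxa against PBS depended on a library of neither group. Without OAP2 3 the same Oxa and PBS libraries gave 37 lower members, 48.1%, where 7.49% of all genes tested were lower, and the median was again -0.33. All 6 members called with 12 libraries were among the 37. The fit shares 1 estimate of the spread over all groups, and the SE of Rps20, for example, was 0.15 with OAP2 3 and 0.08 without it. A fit of the 6 libraries of Oxa and PBS alone gave 15 lower members, where 1.99% of all genes tested were lower. Leaving out OAP2 2 instead gave 12 with 4.34% of all genes, and leaving out Oxa 1 or Oxa 2 gave 3 each, with 2.28% and 1.73%. Leaving out PBS 2 gave 9, with 11.2%, so that there the members' share was near that of all genes.

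Rpl3 and Rps20 departed from the rest of the ribosomal protein genes in Oxa. Subtracting the mean deviation of the other 76 members, Rpl3 stood at -0.28, -0.34 and -0.36 (log2) in Oxa 1 to 3, against 0.22, -0.16 and 0.12 in PBS, 0.28, 0.23 and 0.28 in APAP, and 0.05, 0.16 and -0.20 in OAP2. Rps20 stood at -0.35, -0.28 and -0.38 in Oxa and between 0.01 and 0.23 in all other libraries. For both genes the 3 Oxa libraries were the lowest of the 12 on this scale, on which a shift common to all ribosomal protein genes cancels. Because these genes were picked for their low values in Oxa, the relative levels are given as a description and without a test.

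**Figure D4:**
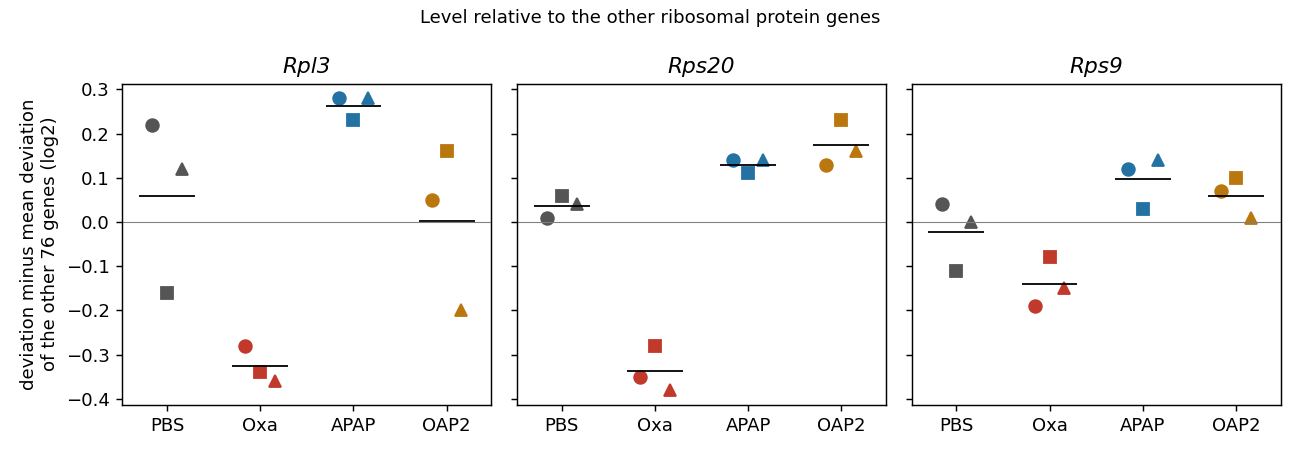
Level of Rpl3, Rps20 and Rps9 in each library relative to the other 76 ribosomal protein genes (log2 deviation minus their mean deviation). Points are libraries and lines group means. The Oxa libraries lie at -0.28 to -0.36 for Rpl3 and -0.28 to -0.38 for Rps20, and for Rps9 between -0.08 and -0.19.

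In APAP against PBS, all 77 values were negative, with a median of -0.20 beside 0.00 over all genes tested. No member was called lower or higher by edgeR, DESeq2 or limma on log2 FPKM, where 0.0166% of all genes tested were lower by edgeR. Limma with array quality weights called 1 lower, where it called 0.631% of all genes lower. At an unadjusted p below 0.05 by edgeR, 6 were lower and 0 higher, where 5.26% of all genes tested were lower. For 35 members the highest APAP library was below the lowest PBS library, or 45.5%, where 8.44% of all genes tested did. The lowest values were those of Rpl17 (-0.70 ± 0.44, adjusted p = 0.664) and Rpl21 (-0.65 ± 0.27, 0.495), both copy-dominated rows, and the highest were those of Rpl26 (-0.01 ± 0.26) and Rpl3 (-0.02 ± 0.11). Without OAP2 3 there were again 0 called members, 0.0166% of all genes being lower, with 33 lower at an unadjusted p below 0.05, where 6.87% of all genes were. Leaving out APAP 1 instead moved the median to -0.13 with 1 member lower at that level, where 2.91% of all genes were. Leaving out APAP 3 also gave 1 (all genes 3.73%), leaving out PBS 2 gave 2 (4.69%) and leaving out OAP2 2 gave 11 (5.16%).

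In OAP2 against PBS, the result depended on OAP2 3. With all 12 libraries the median was -0.03 and 48 of 77 values were negative. No member was called in either direction by edgeR or by limma on log2 FPKM, where 3.11% of all genes tested were lower by edgeR. Limma with array quality weights called 9 lower, where it called 11% of all genes lower. DESeq2 called 1 lower, where it called 5.43% of all genes lower. At an unadjusted p below 0.05, 2 were lower and 0 higher by edgeR, where 10.7% of all genes tested were lower. The lowest values were Rpl17 (-0.99 ± 0.44, adjusted p = 0.223) and Rpl21 (-0.48 ± 0.26, 0.329), and the highest Rpl41 (0.23 ± 0.21) and Rps21 (0.19 ± 0.15). Leaving out OAP2 1 or OAP2 2 instead gave medians of 0.04 and 0.12.

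Without OAP2 3, all 77 values were negative with a median of -0.30 beside -0.01 over all genes, and 11 members, 14.3%, were lower, where 4.07% of all genes tested were. They were Rpl30 (-0.56), Rpl34 (-0.54), Rpl35a (-0.48), Rpl22 (-0.41), Rpl15 (-0.40), Rpl27a (-0.40), Rpl12 (-0.37), Rps18 (-0.35), Rpl4 (-0.34), Rpl8 (-0.32) and Rpl7 (-0.32), with adjusted p between 0.0227 and 0.0474. Of these, 10 belong to the 60S subunit, with 46 tested members, and 1 to the 40S subunit, with 31. The medians of the 2 subunits were nonetheless close in this fit, at -0.32 for 60S and -0.28 for 40S. In Oxa against PBS without OAP2 3, 22 of the 46 and 15 of the 31 were lower. All 11 were also lower in Oxa against PBS without OAP2 3, a comparison with the same PBS libraries. In that comparison 37 of the 77 members, 48.1%, were lower. The same overlap over all genes tested was not counted. In the fit without OAP2 3 the OAP2 group holds 2 libraries. Their FPKM for Rpl34, for example, was 43.4 and 35.7 against 52.9, 60.3 and 60.5 in PBS, with 68.9 in the omitted library.

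**Figure D5:**
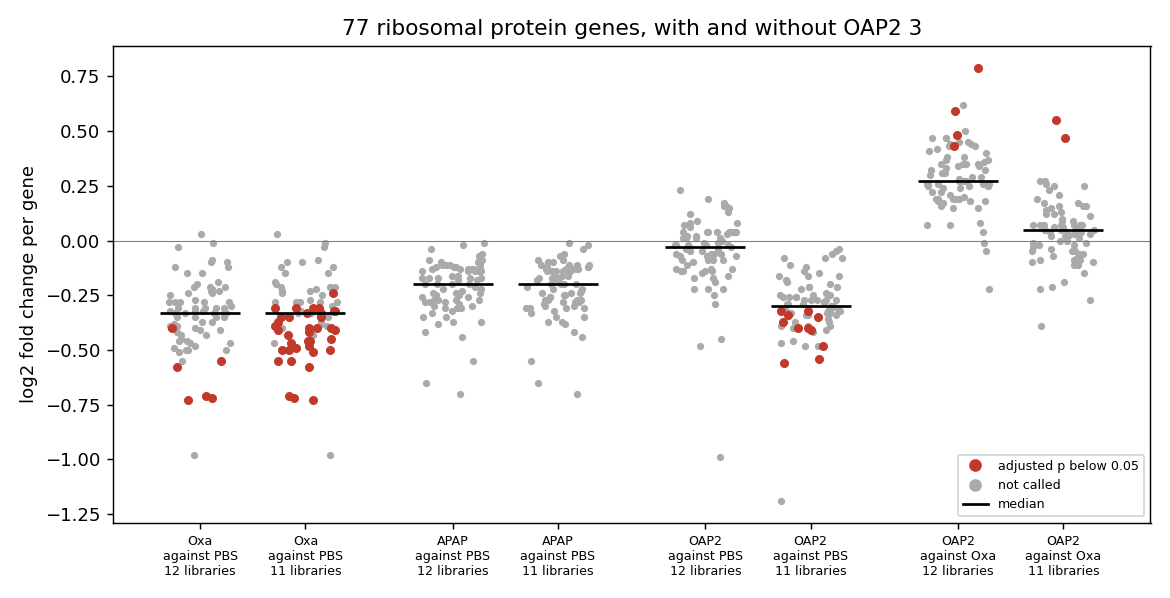
Log2 fold change of each of 77 ribosomal protein genes in 4 comparisons, from 12 libraries and from 11 libraries without OAP2 3. Each point is a gene, red where the adjusted p is below 0.05, and black lines are medians. The median of OAP2 against PBS moves from -0.03 to -0.30 and that of OAP2 against Oxa from 0.27 to 0.05, while that of Oxa against PBS stays at -0.33.

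In OAP2 against Oxa, 4 members rose and 0 fell, 5.19% where 6.02% of all genes tested rose. Among them were Rps20 (0.79 ± 0.15, adjusted p = 0.00428, and 8.25e-06 to 0.026 over the alternatives), Rpl3 (0.59 ± 0.11, 0.00511, and 2.1e-05 to 0.0314) and Rps9 (0.48 ± 0.14, 0.038). The median was 0.27 beside 0.00 over all genes, and 74 of 77 values were positive. All 3 OAP2 libraries lay above all 3 Oxa libraries for 10 members, or 13.0%, where 16.5% of all genes tested did. The lowest value was that of Rps2 (-0.22 ± 0.20, adjusted p = 0.522), followed by Rpl21 (-0.05 ± 0.26, 0.922), and the highest uncalled value was that of Rps12 (0.62 ± 0.21, 0.0724). Leaving out PBS 2 gave 10 higher members, where 10.1% of all genes were higher, and leaving out OAP2 2 gave 15 with 4.34%. Without any single Oxa or APAP library 2 were higher, with between 2.82% and 5.19% of all genes.

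Without OAP2 3, the median was 0.05 and 2 members, 2.60%, were higher, where 6.68% of all genes tested were. These were Rps20 (0.55 ± 0.09, adjusted p = 0.00353) and Rpl3 (0.47 ± 0.10, 0.0103). Rps9 (ENSMUSG00000006333), a 40S body protein, read FPKM 259, 258 and 281 in PBS, 178, 192 and 208 in Oxa, 221, 242 and 259 in APAP, and 247, 215 and 340 in OAP2, and without OAP2 3 its change was 0.27 (adjusted p = 0.0812). This call was also lost without any single Oxa or APAP library and without OAP2 1 (0.0549), with adjusted p from 0.00818 to 0.137 over the alternatives.

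In OAP2 against APAP, no member was called by edgeR, DESeq2 or limma on log2 FPKM, where 0.274% of all genes tested were higher by edgeR. Limma with array quality weights called 1 lower, where it called 5.48% of all genes lower. At an unadjusted p below 0.05 by edgeR, 2 were higher and 0 lower, where 7.79% of all genes tested were higher. The median of 0.17 with 12 libraries was 0.31 without OAP2 2 and -0.08 without OAP2 3, again with 0 called, where 0.349% of all genes tested were lower. The highest values with 12 libraries were Rps27 (0.62 ± 0.20, adjusted p = 0.182) and Rpl36 (0.46 ± 0.22, 0.349), and the lowest Rpl17 (-0.29 ± 0.44, 0.810) and Rps2 (-0.16 ± 0.20, 0.763).

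Of the ribosomal protein promoters, 57 of the 77 tested members were matched to RefSeq by symbol (GRCm38.p6). A run of at least 8 pyrimidines (C or T, read only in the sense of the mRNA) within 20 bases of the annotated start was counted. It was present in 29 of the 57 (50.9%), against 18.4% of 27025 genes. Of the 6 members that fell in Oxa, 3 were matched. Their windows from 20 bases before to 9 bases after the start position are shown with the longest run in capitals: Rpl5 at chr5:107900508-107900537 (plus strand), Rps18 at chr17:33955656-33955685 and Rps13 at chr7:116334181-116334210 (both minus strand).
Rpl5: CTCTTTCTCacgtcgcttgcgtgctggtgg
Rps18: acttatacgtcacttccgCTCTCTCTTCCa
Rps13: cgcgcgagagcaaacgTCggtgagtggcgt
Within 20 bases of the start, the longest runs were 9, 11 and 6 bases. An annotated start can lie several bases from the start used in these cells, and a run is only a description of the sequence.

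The other genes of the ribosome and of its control were read from 5 lists. Of 8 further ribosome genes outside the naming rule, 2 fell and 0 rose in Oxa against PBS, where 4.76% of all genes tested fell. The median was -0.31. Without OAP2 3, 5 of the 8 fell, where 7.49% of all genes tested did. Rpl22l1, the paralogue of Rpl22, read FPKM 36.2, 42.3 and 41.9 in PBS, 20.6, 18.2 and 20.9 in Oxa, 31.6, 31.0 and 33.6 in APAP, and 27.9, 24.7 and 45.2 in OAP2. It fell by 1.00 ± 0.17 on the log2 scale in Oxa against PBS (adjusted p = 0.00501) and rose in OAP2 against Oxa by 0.72 ± 0.17 (0.0162, and 0.0149 without OAP2 3; 0.0502 without Oxa 1 and 0.073 without Oxa 2, within 0.00103 to 0.073 over the alternatives). Rpl22 itself had -0.35 ± 0.18 in Oxa against PBS (adjusted p = 0.238). Rack1, a scaffold on the 40S head, fell by 0.36 ± 0.10 in Oxa (adjusted p = 0.0455, with 0.00426 to 0.163 over the alternatives, and above 0.05 on leaving out PBS 1, PBS 3, OAP2 1 or any Oxa or APAP library).

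Of 22 translation factors and other mRNAs known for an oligopyrimidine start, 3 fell and 1 rose in Oxa against PBS. Of all genes tested, 4.76% fell and 5.35% rose. The median of the list was -0.20. Without OAP2 3, 8 fell and 1 rose, where 7.49% of all genes tested fell and 7.22% rose. The 3 that fell with 12 libraries were Hnrnpa1, an RNA-binding protein (-0.71 ± 0.10, adjusted p = 0.00256), Tpt1, the translationally controlled tumour protein (-0.56 ± 0.15, 0.0329), and Eef1g, a subunit of elongation factor 1 (-0.33 ± 0.10, 0.0441). Vim, an intermediate filament protein, rose by 1.02 ± 0.15 (0.00302), with FPKM of 113, 114 and 111 in Oxa and 50.2, 72.9 and 44.7 in PBS. In OAP2 against PBS, Eef1g (-0.44 ± 0.10, 0.0198) and Eif4b, a helicase cofactor (-0.34 ± 0.08, 0.0359), fell, the first of them with FPKM of 197, 183 and 221 against 268, 291 and 260. In OAP2 against Oxa, Tpt1 (0.62 ± 0.15, 0.0163) and Hnrnpa1 (0.45 ± 0.10, 0.0129) rose and Vim fell (-0.95 ± 0.15, 0.00189), all 3 also called without OAP2 3. In OAP2 3, Eef1g at 221 lay below all PBS libraries. Several of these calls were lost on leaving out any of several libraries, in some cases a library of neither group compared. In Oxa against PBS, Tpt1 had adjusted p from 0.00059 to 0.124 over the alternatives and was lost without PBS 1, PBS 3, APAP 3 or any Oxa library, and Eef1g had 0.00264 to 0.15 and was lost without PBS 1, PBS 3, OAP2 1 or any Oxa or APAP library. In OAP2 against PBS, Eef1g (0.000644 to 0.225) was lost without PBS 1, OAP2 1 or OAP2 2, and Eif4b (0.00187 to 0.308) without PBS 1, OAP2 1, OAP2 2 or any Oxa or APAP library. In OAP2 against Oxa, Tpt1 (0.000857 to 0.0708) was lost without Oxa 1 or Oxa 2 and Hnrnpa1 (0.000346 to 0.0533) without Oxa 3.

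Of 21 regulators of ribosomal protein mRNAs and of ribosome production, 3 rose and 1 fell in Oxa against PBS. Of all genes tested, 5.35% rose and 4.76% fell. Pdcd4, an inhibitor of the helicase eIF4A, read FPKM 1.38, 1.02 and 1.69 in PBS and 4.12, 2.94 and 3.22 in Oxa (1.33 ± 0.23, adjusted p = 0.00519). Tsc2, a brake on mTOR, rose by 0.62 ± 0.16 (0.0287), and Maf1, a repressor of RNA polymerase III, by 0.51 ± 0.15 (0.0472). Tsc2 was lost without PBS 1, PBS 3 or any Oxa library (6.54e-05 to 0.0995 over the alternatives). Maf1 was lost on leaving out any single library other than PBS 2 or OAP2 3 (0.000194 to 0.157). Eif4e, the cap-binding protein, fell by 0.48 ± 0.12 on the log2 scale (0.0214, and 0.00148 to 0.101 over the alternatives, lost without PBS 3, Oxa 1 or Oxa 2). Myc, an activator of ribosome production, read 286, 310 and 308 in PBS, 355, 368 and 345 in Oxa, 258, 243 and 264 in APAP, and 210, 218 and 238 in OAP2. Its level was thus highest in Oxa and lowest in OAP2 without overlap, with -0.43 ± 0.09 in OAP2 against PBS (0.012, with 3.75e-05 to 0.193 over the alternatives and 0.0559 without OAP2 1), -0.68 ± 0.09 in OAP2 against Oxa (0.000522) and 0.25 ± 0.09 in Oxa against PBS (0.079). Tsc2 fell in OAP2 against Oxa (-0.60 ± 0.16, 0.0264, and 0.00229 to 0.0911 over the alternatives, lost without Oxa 1 or Oxa 2).

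Of 13 genes of the 5S particle, MDM2 and p53 axis, 2 fell and 0 rose in Oxa against PBS with 12 libraries. Of all genes tested, 4.76% fell and 5.35% rose. Without PBS 2, the library with blood cell markers, 2 fell and 2 rose, where 11.2% of all genes tested fell and 14.2% rose. Sesn2, a stress-induced inhibitor of mTOR signalling, read FPKM 9.39, 24.6 and 7 in PBS and 21, 20.6 and 20.5 in Oxa, a change of 0.60 ± 0.33 (adjusted p = 0.268) with 12 libraries and of 1.34 ± 0.16 (0.000162) without PBS 2. Mdm2 had 0.00 ± 0.15 (0.988) with 12 libraries and 0.27 ± 0.09 (0.0427) without PBS 2. Mdm4, the partner of MDM2, read FPKM 15.3, 13.3 and 17.0 in PBS and 8.77, 7.99 and 8.83 in Oxa (-0.83 ± 0.11, adjusted p = 0.00214). Cdkn1a, the cell cycle inhibitor p21, fell by 0.74 ± 0.18 (0.0229, with 0.00153 to 0.103 over the alternatives, lost without PBS 1, Oxa 2 or Oxa 3). Both rose in OAP2 against Oxa, by 0.77 ± 0.11 (0.00102) and 0.75 ± 0.18 (0.0187, lost without Oxa 2, OAP2 1 or OAP2 2). Trp53 fell in OAP2 against Oxa (-0.36 ± 0.10, 0.0316), with 0.0093 to 0.115 over the alternatives, lost without OAP2 2, OAP2 3 or any Oxa library. Of 12 tested genes of ribosome stalling, turnover and hibernation, 0 were called in Oxa against PBS by edgeR with 12 libraries, where Eif2ak4, the kinase GCN2, had -0.34 ± 0.11 (0.0667) and Rnf14, a ubiquitin ligase acting on stalled ribosomes, 0.31 ± 0.10 (0.0683). Without OAP2 3, 3 of the 12 were called, 1 higher and 2 lower, where 7.22% of all genes tested were higher and 7.49% lower. Without PBS 2, 5 were called, 2 higher and 3 lower, where 14.2% of all genes tested were higher and 11.2% lower. Leaving out PBS 2 likewise gave 2 higher and 4 lower of the 22 translation genes in Oxa against PBS. It gave 6 higher and 1 lower of the 21 regulators, beside the same shares of all genes tested.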

How the data were processed

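Poly(A) RNA of 12 libraries was sequenced in pairs, per the labels' protocols. Build mm9 and, with no role given, HISAT2 2.2.1, cutadapt 1.9, edgeR, StringTie 2.1.6 and DESeq2 are named in the submitters' processing notes. Of the 78 members, 67 have the same position as in GENCODE M21, so positions are given in GRCm38. The deposited counts were taken, from their appearance, to be estimated counts per gene left unscaled by the authors. The FPKM values, which the authors scaled for length and depth, were deposited beside them and serve here as levels. How strand and multiply aligned reads were handled is not given in the sources used here. No per-sample column was left out (0 unused).

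The 12036 genes (77 members) that reached FPKM 1 in 3 or more libraries were fitted in edgeR 4.0.16 (R 4.3.3; TMM, glmQLFit, glmQLFTest, 2-sided) with 1 mean per group, with Benjamini-Hochberg adjustment over all genes and a threshold of 0.05. The SE was derived from the log2 fold change and the F statistic. The fit was tested on simulated data. Pseudogene rows were matched to members with BLAST 2.17.0. Alternatives used DESeq2 1.42.0, limma 3.58.1 and other settings named in the closing section. The rule for named genes took all called members, the extremes of each comparison and of level, the paralogues, the stalk proteins, Rpl5, Rpl11, Rpsa, Rps6 and Rps27a, and up to 4 called genes per list. 1 called member is not reported here. Members, lists and tests were chosen with earlier results of these data known.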

Additional observations from a re-analysis of the deposited data

How the results depend on the processing

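In Oxa against PBS, 6 members were lower, where 4.76% of all genes were. It was 18 by DESeq2 (all genes 8.25%), 15 with only the 6 libraries compared (1.99%), 17 with the length trend removed (6.45%), 38 with array quality weights (17.1%) and 47 without PBS 2 and OAP2 3 (16.9%). It was 3 with copies added by name (5.16%) or by sequence (5.45%), and 39 with the latter and without OAP2 3 (8.06%). Leaving out 1 library gave 3 to 37. In OAP2 against PBS, 0 members were lower, 1 by DESeq2 (5.43%), 9 with array quality weights (11%), 25 without PBS 2 and OAP2 3 (11.1%), and 11 with copies added and without OAP2 3 (4.34%). Leaving out 1 library gave 0 to 11. Its median of -0.03 ran from -0.30 to 0.12 on leaving out 1 library, being 0.04 without OAP2 1 and 0.12 without OAP2 2, and was 0.01 with copies added and without PBS 2. In APAP against PBS, 1 member was lower with array quality weights (0.631%). In OAP2 against Oxa, 4 members were higher, 9 by DESeq2 (8.67%), 7 with the length trend removed (7.22%) or with array quality weights (13.8%), and 9 with copies added and without PBS 2 (12.2%). It was 2 without a filter (1.69%), by limma with a pseudocount of 1 (5.13%) or 0.1 (5.06%), and with only the 6 libraries (7.63%). It was also 2 with copies added and without OAP2 3 (7.27%). Leaving out 1 library gave 2 to 15. In OAP2 against APAP, 1 member was lower with array quality weights (5.48%) and 2 without PBS 2 and OAP2 3 (5.23%). Its median of 0.17 was -0.03 with array quality weights and -0.08 without OAP2 3 (-0.08 to 0.31 on leaving out 1 library), without PBS 2 and OAP2 3, and with copies added and without OAP2 3. The sums with sequence-matched copies were chosen after seeing the data. The cause of these shifts was not tested. Of the named genes' values under alternatives, 907 kept their side of the threshold, 169 lost a call, 1 gained one and 15 changed sign.

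Among uncalled extremes in Oxa against PBS, the sign turned for Rps21 (0.00 with total counts only, 0.06 with the length trend removed, 0.03 with array quality weights or without Oxa 1, 0.07 without PBS 2, also without OAP2 3 as well or with copies added; -0.07 to 0.07 on leaving out 1 library), for Rps28 (-0.10 with array quality weights, -0.06 without PBS 2, also without OAP2 3 as well, -0.03 without Oxa 2, -0.05 with copies added and without PBS 2; -0.06 to 0.11 on leaving out 1 library), for Rps2 (0.05 without PBS 1, 0.17 without Oxa 1; -0.19 to 0.17 on leaving out 1 library) and for Rpl41 (0.00 with array quality weights). The labels do not say that equal replicate numbers mark a shared batch or day. Over the 18 pairs of libraries with equal numbers, deviations from group means correlated between -0.152 and 0.155, 1 pair above 0.1, and 1 of 12 libraries correlated best with one of its own number, so the main values have no block. With a replicate block, 10 members were lower in Oxa against PBS (all genes 4.11%), and 3 higher in OAP2 against Oxa (5.53%).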
